A study of Mus musculus with 5 samples.

Results

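The genes described here are 6 rows of a table of 28642 rows, chosen by name: the simple epithelial keratins Krt8, Krt18, Krt7 and Krt19, the trophoblast transcription factor Cdx2 and the placental hormone gene Prl2c2. They were read in all 5 libraries of a study of mouse ES-D3 embryonic stem cells, an established line. Of the 6, 3 passed the filter on low counts (Krt8, Krt18 and Prl2c2) and could be tested. Krt7, Krt19 and Cdx2 did not, and are given by their counts.

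The control library carried a short hairpin against GFP, and is called shGFP or the control. The shTrim28 group held 2 libraries with a different hairpin each against Trim28, which encodes the corepressor of KRAB zinc finger repressors. The group labelled shWtx, called the shWtx-labelled pair, held 2 libraries with a different hairpin each against Wtx, a negative regulator of Wnt signalling, listed in the table as Fam123b. All 5 cultures received a lentivirus and puromycin and were kept in LIF at 10 ng/ml on irradiated feeder cells, which were thinned out by 30 minutes of replating before RNA was taken. No library came from uninfected cells, and nothing in the labels says whether the cultures were otherwise separate, so p-values measure the spread between these libraries, which may be partly technical. Feeder cells still present after replating would have been read together with the stem cells.

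Keratins are the intermediate filament proteins of epithelial cells and assemble as pairs of a type II and a type I chain. Krt8 (type II) and Krt18 (type I) form the first keratin pair of the mouse embryo and mark trophectoderm and other simple epithelia. Krt7 and Krt19 accompany them in trophoblast and ductal epithelia. Cdx2 is required for the trophectoderm lineage and is opposed by Pou5f1 (Oct4) in the early embryo. Prl2c2 encodes proliferin, a prolactin-related hormone of trophoblast giant cells that mouse fibroblast lines also make when given serum.

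The totals of the gene table ran from 280614 estimated counts in shTrim28 replicate 1 to 1901563 in shTrim28 replicate 2. Levels are CPM, the count scaled to a common library total after TMM scaling, with exact 95% Poisson intervals that cover counting error only. Trim28 stood at 783 CPM in shGFP, at 65.3 and 48.3 in shTrim28, and at 399.5 and 396.5 in the shWtx-labelled pair. It was thus lower in that pair too (log2 fold change −0.97, edgeR adjusted p = 0.0108), though by less than in shTrim28 (−3.88, adjusted p = 2.78e-09). Fam123b stood at 14.3 in shGFP, 18.1 and 30.3 in shTrim28, and 26.3 and 16.5 in the shWtx-labelled pair (log2 fold change against shGFP 0.65, edgeR adjusted p = 0.508). The target of the shWtx hairpins was thus not seen to be lower, so that pair is known by its label only. Reads in chemoreceptor genes, which embryonic stem cells should hardly use, differed between libraries. Not scaled for depth, they came to 0.0969 estimated counts per kilobase of transcript in shGFP, 0.313 and 1.36 in shTrim28, and 1.61 and 0.687 in the shWtx-labelled pair. Scaled to CPM per kilobase they stood at 0.174 in shGFP, 1.14 and 0.763 in shTrim28, and 2.23 and 1.89 in the shWtx-labelled pair. Multiplied by a gene's transcript length, the unscaled values give the count that the gene would show at the chemoreceptor level. For Fam123b this was 0.824 in shGFP, where it was counted 8 times. In the shWtx-labelled pair it was 13.7 and 5.84, beside 19 and 6 counts. Whether Fam123b fell in that pair could thus not be judged, since its counts there lay near the chemoreceptor level.

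Krt8 and Krt18 lie close together on chromosome 15, Krt8 from 101996711 to 102004342 and Krt18 from 102028216 to 102032026 in GRCm38.p6, with 23873 bases between them. Krt7 lies on the same chromosome at chr15:101412403-101427806, Krt19 at chr11:100140810-100145926, Cdx2 at chr5:147300900-147307249 and Prl2c2 at chr13:12996120-13005393. The promoters of Krt8 and Krt18 promoters are shown because both had their highest levels in the same libraries. Each runs 5′ to 3′ on the strand of its gene, from 250 bases before to 50 bases after the RefSeq start. Capitals mark matches to any of 4 motifs searched on both strands: the TATA box as TATAAA, the Sp1 motif as GGGCGG, the AP-1 motif as TGANTCA and the AP-2 motif as GCCNNNGGC. The Krt8 window is chr15:102004293-102004592 on the minus strand and the Krt18 window chr15:102027966-102028265 on the plus strand.
Krt8: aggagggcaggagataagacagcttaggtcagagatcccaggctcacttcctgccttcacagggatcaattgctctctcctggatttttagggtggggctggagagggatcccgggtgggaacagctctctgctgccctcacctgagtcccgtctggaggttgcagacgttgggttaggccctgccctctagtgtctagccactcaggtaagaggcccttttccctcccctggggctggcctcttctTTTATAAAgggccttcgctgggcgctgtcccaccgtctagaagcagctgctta
Krt18: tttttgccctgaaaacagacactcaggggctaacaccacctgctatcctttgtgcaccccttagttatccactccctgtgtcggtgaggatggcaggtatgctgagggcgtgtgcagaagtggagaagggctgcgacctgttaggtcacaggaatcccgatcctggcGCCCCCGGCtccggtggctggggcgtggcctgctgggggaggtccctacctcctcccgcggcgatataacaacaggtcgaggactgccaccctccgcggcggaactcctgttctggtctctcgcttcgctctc

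The Krt8 window held TATAAA on both strands, in 2 matches that share 4 bases and lie at the annotated start itself. The Krt18 window held GCCNNNGGC, which reads the same on both strands, in 1 match that begins at position -83. Neither window held GGGCGG or TGANTCA, and no motif was found in both. Among 32817 promoter windows of the same length, 13.6% held the TATA box motif, 16.6% the AP-2 motif, 35.6% the Sp1 motif and 7.81% the AP-1 motif. RefSeq windows of Krt7 and Cdx2 were searched too. Krt7 held GGGCGG 4 times and GCCNNNGGC 2 times, and Cdx2 held GCCNNNGGC in 1 place. Windows for Krt19 and Prl2c2 were not used here.

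Proliferin is made by several near-identical genes on chromosome 13, which bears on how far its counts can be assigned to a copy. The coding sequences of Prl2c2 and Prl2c3 differ at 3 of 672 aligned bases, and those of Prl2c2 and Prl2c5 at 33 of 666. The 90-base coding stretch with the most differing positions, 8 in number, is shown from GENCODE transcripts with those positions in capitals. It spans coding bases 287 to 376 of Prl2c2 and Prl2c3 and 296 to 385 of Prl2c5.
Prl2c2: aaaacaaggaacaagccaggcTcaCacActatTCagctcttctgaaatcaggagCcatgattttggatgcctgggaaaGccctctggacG
Prl2c3: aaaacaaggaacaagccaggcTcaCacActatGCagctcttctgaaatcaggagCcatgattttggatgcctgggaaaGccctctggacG
Prl2c5: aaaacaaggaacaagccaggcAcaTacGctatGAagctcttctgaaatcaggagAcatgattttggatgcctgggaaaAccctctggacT

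Of all 30-base windows in the Prl2c2 transcript, 94.7% also occurred in another annotated gene, and 87.9% occurred in Prl2c3. For Krt8 the share was 36.7%, mostly through the pseudogene Krt8-ps, and for Krt18 it was 12.4%. It was 3.4% for Krt7, 0.776% for Krt19 and 0.314% for Cdx2. No source used here says how reads with several matches were assigned. Counts of Prl2c2 are therefore uncertain between copies, and those of Krt8 partly uncertain between the gene and its pseudogene.

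Krt8, the type II chain of the simple epithelial pair, was highest in both shTrim28 libraries. It was counted 6 times in shGFP, which gave 10.7 CPM (3.94 to 23.4). In shTrim28 replicate 1 it was counted 12 times, at 43.5 CPM (22.5 to 76.1), and in replicate 2 it was counted 87 times, at 48.8 CPM (39.1 to 60.2). The shWtx-labelled pair had 4 counts each, at 5.53 CPM (1.51 to 14.2) and 11.01 CPM (lower bound 3.001). Both shTrim28 libraries thus lay above all 3 others, although the interval of shTrim28 replicate 1 overlapped those of shGFP and shWtx-labelled replicate 2. The shWtx-labelled pair lay on both sides of the control.

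Krt18, the type I partner, was also highest in both shTrim28 libraries, with shGFP the lowest. The control held 2 counts, at 3.58 CPM (0.434 to 12.9). The shTrim28 libraries held 9 counts at 32.7 CPM (14.9 to 62.0) and 78 counts at 43.8 CPM (34.6 to 54.6). The shWtx-labelled pair held 4 and 2 counts, at 5.53 CPM (1.51 to 14.2) and 5.51 CPM (0.667 to 19.9). Both shTrim28 values again lay above all 3 other libraries, and the intervals of the shTrim28 libraries overlapped each other. The interval of shTrim28 replicate 1 also overlapped that of shWtx-labelled replicate 2.

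Prl2c2 was among the most abundant transcripts in every library. It had 582 counts in shGFP, or 1042 CPM (959 to 1130). In shTrim28 it had 649 counts at 2355 CPM (2177 to 2543) and 4795 counts at 2691 CPM (2615 to 2768). In the shWtx-labelled pair it had 872 counts at 1205 CPM (1127 to 1288) and 491 counts at 1352 CPM (1235 to 1477). Per kilobase of transcript its level exceeded that of 99.5% of 19017 gene symbols with a length in shGFP, and of 99.8% to 99.9% in the other libraries. The shTrim28 libraries lay above all others, and the control was the lowest.

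**Figure D1:**
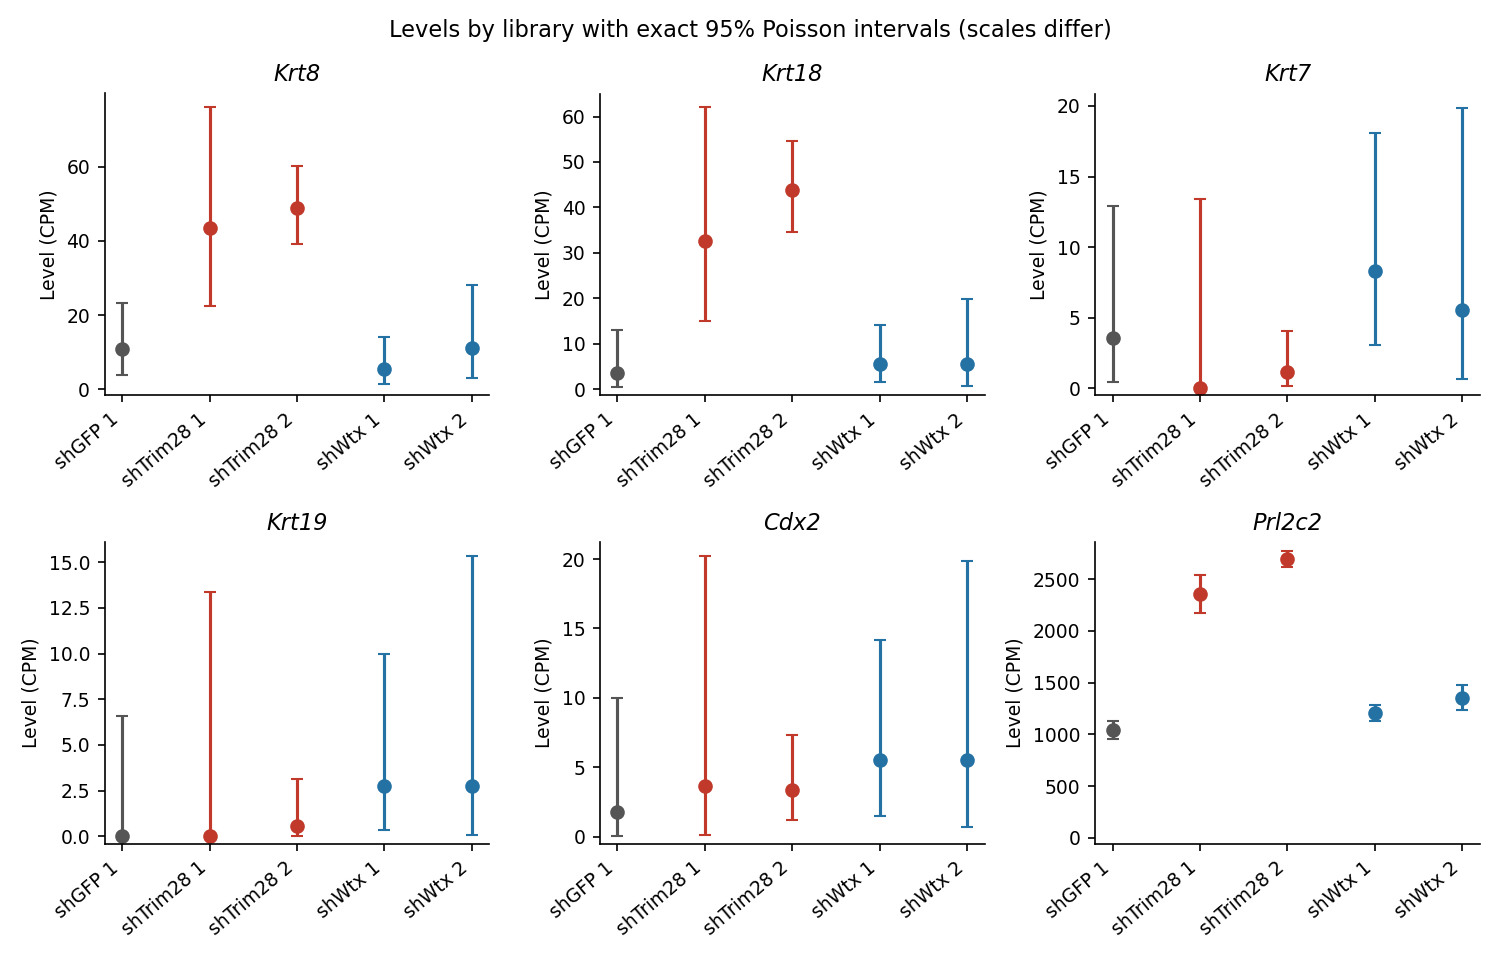
Level in CPM (y axis, linear, scaled separately for each gene) of the 6 genes in the 5 libraries (x axis), with bars for exact 95% Poisson intervals and colours for the hairpin target. Krt8, Krt18 and Prl2c2 stood highest in the 2 shTrim28 libraries, while Krt7, Krt19 and Cdx2 rested on 0 to 6 counts per library with intervals that overlapped.

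Knockdown of Trim28 was first set against the hairpin to GFP. Krt8 and Krt18 had passed the filter on low counts only through shTrim28, the group where they were highest. That all tested genes were higher there is thus partly set by the filter. All 3 tested genes were higher in shTrim28 than in shGFP with edgeR's quasi-likelihood test, where 4.27% of 10878 rows tested were called higher and 2.26% lower at an adjusted p under 0.05. The split of those calls was 464 higher and 246 lower, 390 and 336 with DESeq2 size factors, and 231 and 75 with quantile normalization and limma. Krt8 rose from 10.7 to 46.2 ± 3.73 CPM (SD, n = 2), a log2 fold change of 2.12 (SE 0.58, edgeR adjusted p = 0.026). Krt18 rose from 3.58 to 38.2 ± 7.86 CPM (edgeR adjusted p = 0.0053). With 2 counts in shGFP, its size is best given as the ratio of pooled counts, 11.8 with a counting interval of 3.17 to 99.0. Prl2c2 rose from 1042 to 2523 ± 238 CPM, a log2 fold change of 1.28 (SE 0.28, edgeR adjusted p = 0.00459). The median log2 fold change of all rows tested was 0.16, so the changes of Krt8 and Prl2c2 relative to that median were 1.96 and 1.11.

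These calls depend on the method and rest on few libraries. With quantile normalization and limma Krt8 (adjusted p = 0.36) and Krt18 (2.05 in place of 3.44, adjusted p = 0.211) were not called. Without a filter on low counts Krt8 (adjusted p = 0.0569) and Prl2c2 (adjusted p = 0.147) were not called. The control was 1 library, so its spread was taken from the pairs of hairpins. Without shTrim28 replicate 1 edgeR called 0 of all genes and with them 0 of the 3 (adjusted p = 0.328 for each, all 3 at an unadjusted p under 0.05), with log2 fold changes of 2.17 for Krt8 and 1.36 for Prl2c2. Without shTrim28 replicate 2 only Prl2c2 of the 3 was called (adjusted p = 0.00119), and without shWtx-labelled replicate 1 only Krt18 (adjusted p = 0.0195).

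The second comparison, of the shWtx-labelled pair with shGFP, called none of the 3 genes with edgeR, and none had an unadjusted p under 0.05. Of all rows tested, 10.9% were called higher and 4.94% lower (1184 and 537 rows, or 558 and 92 with quantile normalization and limma). Krt8 had a mean of 8.27 ± 3.88 CPM (SD, n = 2) and a log2 fold change of −0.52 (SE 0.77, edgeR adjusted p = 0.68). The ratio of its pooled counts was 0.685, with a counting interval of 0.208 to 2.4. For Krt18 that ratio was 1.54 (0.276 to 15.6; edgeR adjusted p = 0.736), so changes of several fold either way were not detectable at this depth. Prl2c2 had a log2 fold change of 0.29 (SE 0.27, edgeR adjusted p = 0.477). It was called higher, by 0.79 on the log2 scale (adjusted p = 0.00661), with quantile normalization and limma, and not with DESeq2 (adjusted p = 0.705).

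The third comparison set shTrim28 against the shWtx-labelled pair, each with 2 libraries, and does not use the control for its direction. All 3 tested genes were higher in shTrim28, where 5.45% of rows tested were called higher and 9.83% lower. The limit from the filter on Krt8 and Krt18 holds here too. Krt8 had a log2 fold change of 2.64 (SE 0.49, edgeR adjusted p = 0.000566) and Krt18 of 2.84 (SE 0.54, edgeR adjusted p = 0.000715). Prl2c2 had a smaller one of 0.98 (SE 0.22, edgeR adjusted p = 0.00247). In each of the 3 genes both shTrim28 libraries lay above both libraries labelled shWtx. The share of all rows tested with that order was not counted, so it is a description only. Without shWtx-labelled replicate 1 none of the 3 was called, with adjusted p from 0.0829 to 0.272 and all 3 at an unadjusted p under 0.05. None was called without shTrim28 replicate 1 either (adjusted p = 0.157 for each, again with all 3 at an unadjusted p under 0.05). Without shTrim28 replicate 2 only Prl2c2 was called (adjusted p = 0.0118), and without shWtx-labelled replicate 2 it was the 1 gene not called (adjusted p = 0.063). The comparisons share libraries, so their results are not independent of each other.

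**Figure D2:**
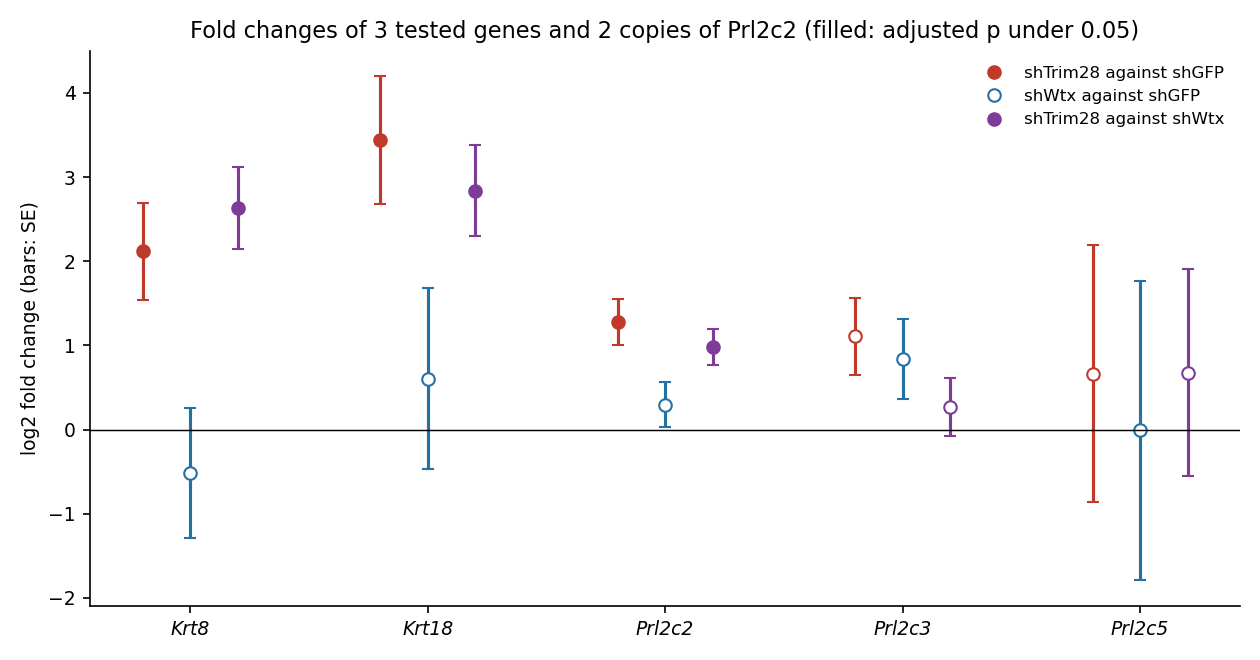
Log2 fold change (y axis, bars for the SE of edgeR's fit) of Krt8, Krt18, Prl2c2 and 2 copies of Prl2c2 (x axis) in the 3 comparisons (colours), filled where the adjusted p was under 0.05. The filled points are those of Krt8, Krt18 and Prl2c2 in the 2 comparisons that hold shTrim28; the Krt18 values against shGFP rest on 2 control counts.

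Krt7, Krt19 and Cdx2 were close to the level at which chemoreceptor genes were read. Krt19 was counted 0 times in shGFP, 0 and 1 times in shTrim28, and 2 and 1 times in the shWtx-labelled pair. The exact Poisson interval of a count of 0 reaches 6.61 CPM in shGFP and 13.4 CPM in shTrim28 replicate 1, and a one-sided limit of 3 counts stands at 5.37 and 10.9 CPM. At the chemoreceptor level Krt19 would have had 0.153 counts in shGFP, 0.494 and 2.14 in shTrim28, and 2.54 and 1.08 in the shWtx-labelled pair. No count of Krt19 therefore stood clear of that level.

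Krt7, a type II keratin of trophoblast and glands, had 2 counts in shGFP, 0 and 2 in shTrim28, and 6 and 2 in the shWtx-labelled pair. The chemoreceptor level would give 0.397, 1.28 and 5.56, and 6.6 and 2.81 in the same order, since its transcript of 4094 bases is the longest of the 6. Only the control lay above that level, with 2 counts. The ratio of pooled counts of shTrim28 to the shWtx-labelled pair was 0.132 (counting interval 0.0137 to 0.662), beside a chemoreceptor level that also differed between them. Without the filter on low counts edgeR gave Krt7 a log2 fold change of −2.44 (SE 1.08) there, with an unadjusted p of 0.0235 and an adjusted p = 0.188.

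Cdx2 had 1 count in shGFP, 1 and 6 in shTrim28, and 4 and 2 in the shWtx-labelled pair. At the chemoreceptor level it would have had 0.219, then 0.709 and 3.07, then 3.64 and 1.55. In CPM it stood at 1.79 in shGFP, 3.63 and 3.37 in shTrim28, and 5.53 and 5.51 in the shWtx-labelled pair. Each of these intervals overlapped all the others. The ratio of pooled counts of shTrim28 to the control was 1.9, with a counting interval of 0.244 to 85.6, so neither a rise nor a fall could be detected at this depth.

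Krt8 and Krt18 lay far above the same level in shTrim28. There Krt8 would have had 0.614 and 2.66 counts and was counted 12 and 87 times, and Krt18 would have had 0.45 and 1.95 and was counted 9 and 78 times. In shWtx-labelled replicate 1, by contrast, Krt8 was counted 4 times with 3.16 at the chemoreceptor level, and Krt18 4 times with 2.32. With that level subtracted from every gene, Krt8 was no longer called against shGFP (log2 fold change 2.15, edgeR adjusted p = 0.089), while Krt18 (adjusted p = 0.0301) and Prl2c2 (adjusted p = 0.00073) still were. All 3 remained called against the shWtx-labelled pair, at 3.24 for Krt8 and 3.43 for Krt18 on the log2 scale.

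**Figure D3:**
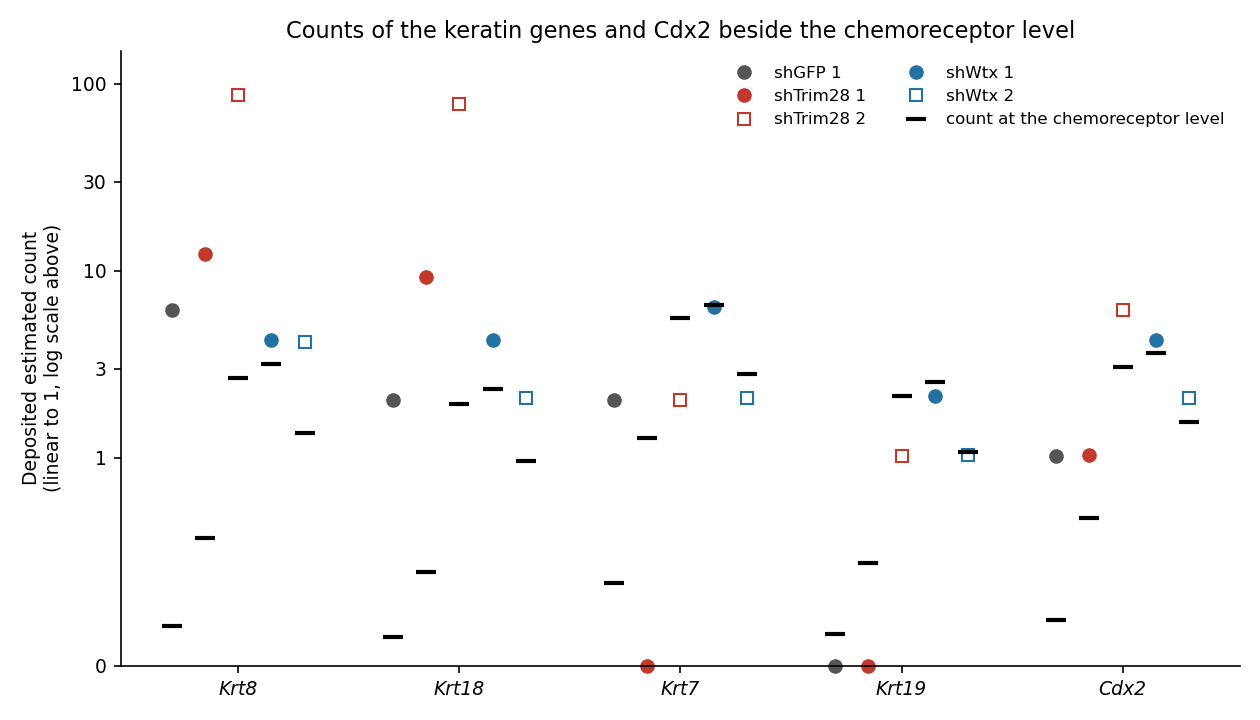
Deposited estimated counts (y axis, linear up to 1 and logarithmic above) of 4 keratin genes and Cdx2 in each library (points), with a black dash at the count each gene would show at the chemoreceptor level. Krt8 and Krt18 stand far above their dashes in shTrim28, at 12.4 and 87.3 and at 9.27 and 78.0, while Krt7, Krt19 and Cdx2 lie near theirs in shTrim28 and shWtx.

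Per kilobase of transcript the keratin partners were read at similar levels. Krt8 stood at 22.2 and 24.9 CPM per kilobase in shTrim28 and Krt18 at 22.7 and 30.5. The ratio of Krt8 to Krt18 per length was 0.979 (counting interval 0.378 to 2.63) in shTrim28 replicate 1 and 0.819 (0.596 to 1.13) in replicate 2. In the control it was 2.2 (0.394 to 22.3), and in the shWtx-labelled pair 0.734 (0.137 to 3.94) and 1.47 (0.21 to 16.2). All 5 intervals held a ratio of equal levels. In shTrim28 both keratins exceeded 86.3% to 89.1% of gene symbols per length, against at most 65.6% in the other libraries, while Prl2c2 was more than an order of magnitude above either.

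The gene table held 50 keratin rows, 46 of them outside the 4 described here, and only Krt8, Krt18 and Krt80 passed the filter on low counts. Krt8 and Krt18 together made up 18.9% of keratin counts in shGFP, 39.0% and 48.5% in shTrim28, and 3.23% and 5.79% in the shWtx-labelled pair. Krt80, a type II keratin, took 17.1% in shGFP, 18.6% and 17.9% in shTrim28, and 42.4% and 36.1% in the shWtx-labelled pair. The other 47 rows together had 0.291 counts per kilobase in shGFP, 0.245 and 1.19 in shTrim28, and 1.5 and 0.647 in the shWtx-labelled pair. Outside the control these values were close to those of chemoreceptor genes given above. None of 12 keratins of stratified epithelia passed the filter, and Krt10, a keratin of differentiated epidermis, had the highest counts among them. It was counted 6 times in shGFP, 4 and 22 times in shTrim28, and 7 and 6 times in the shWtx-labelled pair. In CPM it stood at 10.7 in shGFP, 14.5 and 12.35 in shTrim28, and 9.68 and 16.5 in the shWtx-labelled pair.

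**Figure D4:**
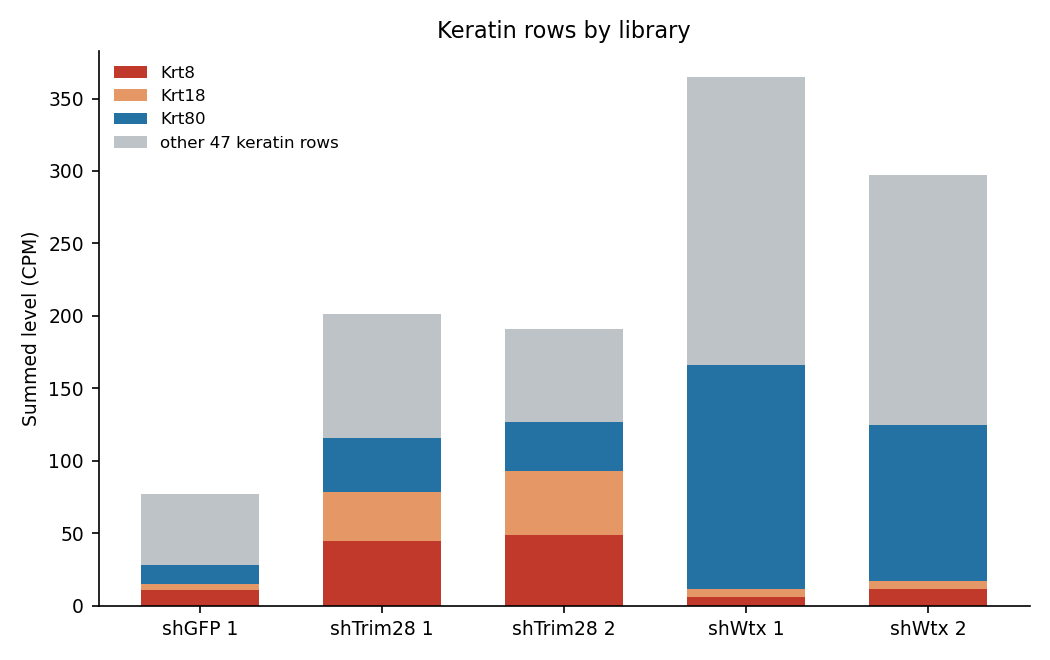
Summed level in CPM (y axis) of the 50 keratin rows in each library (x axis), split into Krt8, Krt18, Krt80 and the other 47 rows. Krt8 and Krt18 make up 39.0% and 48.5% of keratin counts in shTrim28, and Krt80 makes up 42.4% and 36.1% in the shWtx-labelled pair.

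The copies of Prl2c2 were read at much lower levels in the deposited counts. Prl2c2 took 94.6% to 97.8% of the counts of the 4 listed copies in all 5 libraries. Prl2c3 stood at 32.2 CPM in shGFP, 105 and 53.9 in shTrim28, and 48.4 and 71.6 in the shWtx-labelled pair, so its groups overlapped. Its log2 fold change against shGFP in shTrim28 was 1.11 (SE 0.46, edgeR adjusted p = 0.174). Prl2c5 had 1 to 9 counts per library. With the 4 copies summed into 1 row, an alternative added after the data were seen, the log2 fold change of shTrim28 against shGFP was 1.27 (edgeR adjusted p = 0.00804).

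Other genes of the trophoblast programme were called in both directions. Of 17 trophoblast regulators listed, 10 were tested, and in shTrim28 against shGFP 2 rose and 1 fell, beside 4.27% higher and 2.26% lower of all rows tested. The genes that rose were Id2, which blocks helix-loop-helix transcription factors (2.30 on the log2 scale, edgeR adjusted p = 0.00149), and Gata3, a zinc finger factor of trophectoderm (2.42, adjusted p = 0.0266). Esrrb, an orphan nuclear receptor of both trophoblast and embryonic stem cells that stands on the pluripotency list too, fell by 2.50 on the log2 scale (adjusted p = 2.05e-05). The median of the 10 was 0.77, beside 0.16 for all rows tested. Among those not called, Eomes had 3 counts in shGFP and 1 and 11 in shTrim28, Tcfap2c had 11 and then 4 and 11, and Tcfap2a had 4 and then 9 and 48.

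Against the shWtx-labelled pair, Id2 was higher in shTrim28 (2.13, edgeR adjusted p = 0.00014), and Esrrb (−1.33) and the trophoblast factor Elf5 (−2.01, adjusted p = 0.0152) were lower. These were 1 higher and 2 lower of 10 tested, beside 5.45% higher and 9.83% lower of all rows tested. Of 19 genes of placental hormones and differentiated trophoblast, 8 were tested. In shTrim28 against shGFP 1 was called, Prl2c2, beside 4.27% higher and 2.26% lower of all rows tested. Flt1, a receptor for vascular endothelial growth factor that was singled out after its values were seen, had 0 counts in shGFP, 5 and 26 in shTrim28, and 11 and 5 in the shWtx-labelled pair. Flt1 passed the test against shGFP in the shWtx-labelled pair (edgeR adjusted p = 0.0359) and not in shTrim28 (adjusted p = 0.0519). It was the 1 gene of the 8 called in that pair, where 10.9% of all rows tested were called higher. The chemoreceptor level was also lowest in shGFP, at 0.0969 counts per kilobase, beside 0.313 and 1.36 in shTrim28 and 1.61 and 0.687 in that pair. What Flt1 would have had at that level was not worked out, so whether it stood clear of it was not tested. Peg10, an imprinted retrotransposon-derived gene of placenta, was higher together with Prl2c2 against the shWtx-labelled pair (0.67, adjusted p = 0.0401). The placental lactogens Prl3d1 and Prl3b1 had 0 to 2 counts in every library, Tpbpa of the spongiotrophoblast 0 or 1, and Plac1 0 to 2.

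Genes that join or carry keratin filaments were mostly low or not called in shTrim28 against shGFP. Of 8 such genes 5 were tested there, with a median log2 fold change of 1.22, beside 0.16 for all rows tested. Fam83h had 0 counts in shGFP, 2 and 20 in shTrim28, and 15 and 5 in the shWtx-labelled pair. It was called against shGFP in that pair (edgeR adjusted p = 0.0307) and not in shTrim28 (adjusted p = 0.135). Plec1 (plectin), which links intermediate filaments to junctions, rose from 60.9 to 152 and 136 CPM in shTrim28 (log2 fold change 1.22, edgeR adjusted p = 0.0321). It was the 1 gene called in shTrim28 against shGFP of 5 tested in a list of 8. Of all rows tested, 4.27% were called higher and 2.26% lower in that comparison. In shTrim28 against the shWtx-labelled pair these shares were 5.45% and 9.83%. Dsp (desmoplakin), the desmosomal anchor of keratins, had 0 counts in shGFP, 0 and 1 in shTrim28, and 0 and 2 in the shWtx-labelled pair. Of 19 epithelial junction and surface genes 8 were tested, and the 1 called against shGFP in shTrim28 was the protease inhibitor Spint2. It fell by 1.30 on the log2 scale (edgeR adjusted p = 0.0327), and by 1.55 in the shWtx-labelled pair against shGFP (adjusted p = 0.00788). Dsg2, a desmosomal cadherin, was lower in shTrim28 than in the shWtx-labelled pair (−1.73, adjusted p = 0.0228). It stood at 8.95 CPM in shGFP, 3.63 and 11.2 in shTrim28, and 35.9 and 27.5 in the shWtx-labelled pair. Against shGFP it was not called in shTrim28 (0.12, edgeR adjusted p = 0.957). Cdh1, which encodes E-cadherin, had a log2 fold change in shTrim28 against shGFP of −0.97 (adjusted p = 0.225) and Epcam of −0.0046 (adjusted p = 0.998). Among 11 other intermediate filament genes, 6 of them tested, Vim (vimentin) and Lmna (lamins A and C) both rose by 1.08 in shTrim28 (adjusted p = 0.0177 and 0.0318), and Lmnb1 (lamin B1) fell by 0.998 (adjusted p = 0.0294).

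Markers of other cell types moved in the same libraries. The 27 fibroblast genes summed to 2464 CPM in shGFP, 5073 and 5813 in shTrim28, and 2465 and 2808 in the shWtx-labelled pair. In shTrim28 against shGFP 9 of the 24 tested rose and 0 fell, beside 4.27% and 2.26% of all rows. Against the shWtx-labelled pair 15 were higher and 0 lower, beside 5.45% and 9.83%. Tagln (transgelin) rose by 2.71 on the log2 scale against shGFP (edgeR adjusted p = 9.57e-05), the collagen chain Col1a2 by 1.86 (adjusted p = 0.000201) and S100a4 by 1.25 (adjusted p = 0.0133). Acta2 (smooth muscle actin) had 1 count in shGFP, 27 and 87 in shTrim28, and 50 and 23 in the shWtx-labelled pair. In shTrim28 Dcn (decorin) was called against the shWtx-labelled pair (2.12, adjusted p = 2.4e-05) and not against shGFP (0.79, adjusted p = 0.146). In the shWtx-labelled pair against shGFP 2 of the 24 rose and 1 fell, beside 10.9% and 4.94% of all rows. These were Tagln (1.75, edgeR adjusted p = 0.00812), Acta2 (5.09, adjusted p = 7.32e-05) and, lower, Dcn (−1.33, adjusted p = 0.00826). Lum was the 1 fibroblast marker at 0 in shGFP, and Lum and Thbs2 were at 0 in shTrim28 replicate 1. In bulk RNA more cells of a type and more RNA per cell cannot be told apart. The level of Prl2c2 changed little relative to this sum: its CPM divided by that of the list was 0.423 in shGFP, 0.464 and 0.463 in shTrim28, and 0.489 and 0.481 in the shWtx-labelled pair. With Vim, the most abundant of the 27, left out of the sum, the ratio was 0.66 in shGFP, 0.706 and 0.703 in shTrim28, and 0.715 and 0.73 in the shWtx-labelled pair. The ratio of Krt8 and Krt18 to the sum was higher in shTrim28. Per 1000 CPM of the list they summed to 5.81 CPM in shGFP, 15.0 and 15.9 in shTrim28, and 4.49 and 5.88 in the shWtx-labelled pair. The sum is set by its abundant genes, and against shGFP single genes of the list rose by more than the keratins did. Tagln rose by more than Krt8, and Acta2, with 1 control count, by 5.02 on the log2 scale beside 3.44 for Krt18. In that comparison the departure from the sum was thus not particular to Krt8 and Krt18. Against the shWtx-labelled pair Tagln was higher in shTrim28 by 0.96 on the log2 scale, and the largest change in the list was 2.12 (SE 0.28), that of Dcn. Krt8 and Krt18 were higher there by 2.64 (SE 0.49) and 2.84 (SE 0.54). Whether these changes differ from that of Dcn was not tested. What part fibroblasts had in any of these levels was not tested.

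Of 17 markers of endoderm, which also makes simple keratins, 8 were tested. In shTrim28 against shGFP edgeR called 0 of them, beside 4.27% higher and 2.26% lower of all rows, with 1 at an unadjusted p under 0.05. Against the shWtx-labelled pair 1 was higher, Sparc, a matrix glycoprotein (1.28, edgeR adjusted p = 0.00036), beside 5.45% higher and 9.83% lower of all rows. The 17 markers summed to 693 CPM in shGFP, 1096 and 1047 in shTrim28, and 578 and 655 in the shWtx-labelled pair. Sparc alone gave 387 CPM in shGFP, 657 and 699 in shTrim28, and 254 and 308 in the shWtx-labelled pair, so the sum is set largely by it. Afp, Apoa1 and Hnf4a were at 0 in shGFP, Foxa2, Ttr and Apoa1 in shTrim28 replicate 1, and Ttr in replicate 2. Of 15 pluripotency genes all were tested, and in shTrim28 against shGFP 10 fell and 0 rose, beside 2.26% lower and 4.27% higher of all rows. Those with the lowest p, beside Esrrb, were Zfp42 (−2.98), Utf1 (−2.61), Nr0b1 (−4.64) and Dppa5a (−1.93). In the shWtx-labelled pair against shGFP 5 of the 15 fell and 0 rose, beside 4.94% lower and 10.9% higher of all rows. Esrrb (−1.17), Zfp42 (−1.01), Utf1 (−1.15) and Dppa5a (−1.19) were among them, and Nr0b1 was not (−0.99, edgeR adjusted p = 0.117). Against that pair 8 were lower in shTrim28 and 0 higher, beside 9.83% and 5.45% of all rows. Pou5f1 stood at 856 CPM in shGFP, 297.5 and 212 in shTrim28, and 522.5 and 507 in the shWtx-labelled pair. Its fall in shTrim28 (log2 fold change −1.80, edgeR adjusted p = 5.48e-05) came without a detectable change of Cdx2, whose counts are given above.

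**Figure D5:**
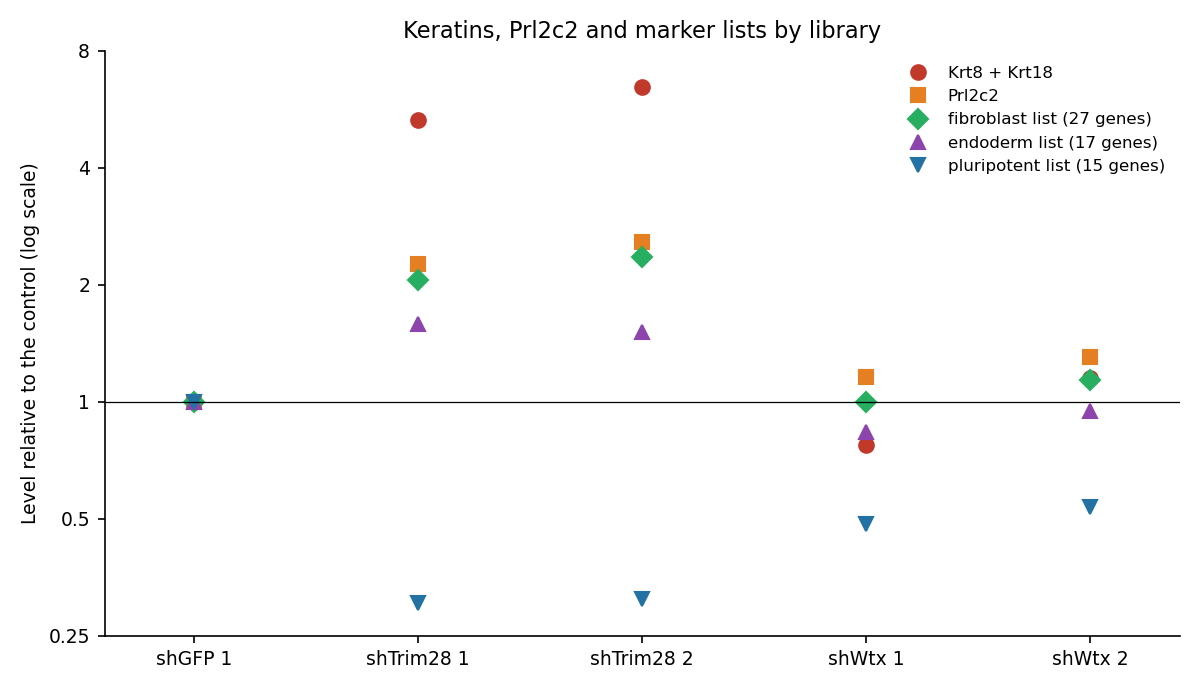
Level relative to the control library (y axis, log scale) of Krt8 and Krt18 summed, of Prl2c2, and of the summed fibroblast, endoderm and pluripotent lists in each library (x axis). Prl2c2 (2.26 and 2.58) lies beside the fibroblast list (2.06 and 2.36) in shTrim28, the keratin pair (5.32 and 6.46) above both, and the pluripotent list (0.303 and 0.311) below the control.

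Genes with the most similar profile were ranked by the root mean square difference of centred log2 CPM over the 5 libraries, among 9414 named genes with a mean of at least 10 CPM. This is a description of 5 points, and libraries that differ in depth enter it equally. For Krt8 the nearest were Efemp1, a matrix glycoprotein (0.249), Acot1 (0.315), Casp12 (0.357), Ly6c1 (0.361) and the epoxide hydrolase Ephx1 (0.365), beside a median of 1.21 over all genes ranked. Efemp1 stood at 37.6 CPM in shGFP, 97.97 and 119 in shTrim28, and 20.7 and 33.0 in the shWtx-labelled pair. For Krt18 they were the homeobox gene Hoxb1 (0.38), Id2 (0.443), Cyp1b1 (0.443), Fbln5 (0.458) and Mxra8 (0.461), with Krt8 next at rank 6 (0.501) and a median of 1.41.

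For Prl2c2 the nearest were Atxn1l (0.0532), Mapkap1 (0.0661), Pdcd7 (0.0696), the cyclin Ccng1 (0.0733) and the integrin chain Itgb1 (0.0778), beside a median of 0.671. Itgb1 stood at 118 CPM in shGFP, 239.5 and 277 in shTrim28, and 123 and 154 in the shWtx-labelled pair. The place of the keratins and Prl2c2 beside each other depended on where the ranking started. In likeness to Krt8 Prl2c2 ranked at 189 (0.699), and in likeness to Krt18 at 134 (0.83). In likeness to Prl2c2, to which most genes are closer, Krt8 ranked at 5113 and Krt18 at 6569 with those same differences.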

How the data were processed

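RNA of 5 libraries was read by Helicos single-molecule sequencing, without amplification. The authors deposited estimated counts per gene after alignment to RefSeq, per the labels' design text, with mm9 named as genome build by the submitters' processing notes. The aligner, counter and strand setting were not given in the sources. In the deposited files each read was worth 1.02 to 1.06 estimated counts, and some counts were fractions.

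Whole numbers were made of the estimated counts by rounding, and rows passed filterByExpr with a minimum count of 10, which left 10878 of 28642. The test was edgeR 4.0.16 (R 4.3.3), quasi-likelihood, TMM scaling, all 5 libraries in 3 groups without covariates, two-sided, with Benjamini-Hochberg adjustment over all rows tested and a threshold of 0.05. The biological coefficient of variation was 0.168. Standard errors are the fold change divided by the root of F and are approximate. DESeq2 1.42.0 and limma 3.58.1 (quantile normalization) served as alternatives. Ratios carry exact conditional 95% intervals, for counting error only. Transcript lengths are those of the longest GENCODE M21 transcript with a RefSeq accession, found for 19017 of 19486 symbols. Chemoreceptor levels used 1304 genes. Promoters are RefSeq's (GRCm38.p6); no coordinates of mm9 were used.

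The 6 genes and the lists of other genes were chosen with earlier results of these data known. Named genes were the 6, those of each list called in a comparison that holds shTrim28 (at most 5, lowest p first), and the 5 with the most similar profile. Genes named for counts or for not being called, and Krt80, Krt10, Flt1, Fam83h, Trim28, Fam123b, Pou5f1 and the marker genes at 0, were chosen after their values were seen. Repeats were not analysed here.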

Additional observations from a re-analysis of the deposited data

How the results depend on the processing

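The direction of each fold change of Krt8, Krt18 and Prl2c2 held under each alternative in which it was examined, with 1 exception. Krt18 in the shWtx-labelled pair against shGFP turned to −0.68 with quantile normalization and limma (adjusted p = 0.609, the cause was not tested). In the same comparison Krt8 was at −0.0020 without shWtx-labelled replicate 1, and neither keratin has a value when only the 2 groups were fitted. Of 3 genes called in shTrim28 against shGFP, 1 was called without a filter (Krt18) and 1 with quantile normalization and limma (Prl2c2), which also called 1 in the shWtx-labelled pair. DESeq2 gave no adjusted p for Krt8 and Krt18, so no count is given for it, and their fold changes with DESeq2 were not examined. Leaving out 1 library at a time gave 0 to 3 of the 3 genes in shTrim28 against shGFP, 0 to 3 in shTrim28 against the shWtx-labelled pair, and 0 in the other comparison.

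Over all genes, edgeR called 710 in shTrim28 against shGFP, 1721 in the shWtx-labelled pair against shGFP, and 1662 between them. In that order the counts were 319, 1143 and 912 without a filter, 306, 650 and 726 with quantile normalization and limma, 278, 548 and 400 with DESeq2, and 347, 521 and 879 with the chemoreceptor level subtracted. Leaving out 1 library at a time gave 0 to 798, 0 to 2340 and 0 to 1470. With DESeq2 size factors the median over all genes in shTrim28 against shGFP was 0.06 in place of 0.16, with 390 higher and 336 lower against 464 and 246, and between shTrim28 and the shWtx-labelled pair 471 higher and 1178 lower against 593 and 1069. All 3 genes stayed called in both comparisons under that scaling. Depth limits Krt7, Krt19 and Cdx2 to counts of 0 to 6. Without a filter edgeR called none of the 3, and the 1 unadjusted p under 0.05 among them was that of Krt7 in shTrim28 against the shWtx-labelled pair.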

Other observations

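Krt80, a keratin gene outside the 6, was singled out after its values were seen. It stood at 12.5 CPM in shGFP, 36.3 and 34.2 in shTrim28, and 155 and 107 in the shWtx-labelled pair. Its log2 fold change was 3.40 (SE 0.49, edgeR adjusted p = 1.23e-05) in the shWtx-labelled pair against shGFP and −1.94 (SE 0.30, adjusted p = 0.000115) in shTrim28 against the shWtx-labelled pair, so its order of groups differed from that of Krt8 and Krt18. The count in shWtx-labelled replicate 1 was 112, where the chemoreceptor level would give 4.94, and 6.45% of its 30-base windows occurred in another gene. Elf5, a trophoblast factor of the Ets family, was likewise highest in the shWtx-labelled pair. It had 1 count in shGFP, 5 and 11 in shTrim28, and 26 and 12 in the shWtx-labelled pair, where it passed the test against shGFP (edgeR adjusted p = 0.00712). The chemoreceptor level was also higher in that pair than in shGFP, and what Elf5 would have had at that level was not worked out.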
